A study of Mus musculus with 12 samples.

Results

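The 10 genes described here are Srebf1, which encodes the SREBP-1 transcription factors, and 9 genes of de novo lipogenesis: Fasn, Acaca, Acacb, Acly, Acss2, Scd1, Elovl6, Me1 and Thrsp. They were picked by gene symbol from 16239 named genes measured in 12 RNA-seq libraries of mouse liver, and each of the 10 was found in all 12 libraries. The labels put the libraries in 4 groups of 3 by diet and genotype. HF knockout mice lacked TSP1 (thrombospondin 1, a secreted matrix protein) in macrophages and ate the HF diet. HF floxed mice carried the floxed gene, ate the same diet and are given as WT in the genotype label. LF knockout and LF floxed mice had the same genotypes and ate the LF diet. All were strain 129/B6, 10 months old, and had been on their diet for 8 months. The labels name no Cre driver and no deleted exon, and the RNA came from whole liver, in which macrophages are a minority of the cells. The study asked what macrophage TSP1 does in fatty liver disease of obesity.

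De novo lipogenesis turns carbohydrate carbon into fatty acids. Citrate or acetate is made into acetyl-CoA, acetyl-CoA is carboxylated to malonyl-CoA, fatty acid synthase builds palmitate from it with NADPH, and elongases and desaturases finish the chain. In liver the pathway is known to follow feeding: insulin raises SREBP-1c, glucose activates ChREBP (the product of Mlxipl), and both factors switch on the enzyme genes. SREBP-1 is also controlled by cleavage of the membrane-bound precursor, which an RNA level does not show. SREBPs bind sterol regulatory elements next to CCAAT boxes, which NF-Y binds, and GC boxes, which Sp1 binds.

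RefSeq (GRCm38.p6) gave promoter windows of 300 bases, 250 before to 50 after the start, for 9 of the 10 genes, in 12 windows since Srebf1 had 3 starts and Me1 had 2. Scd1 was not among them. The deposited values follow build mm9, so these coordinates belong to the RefSeq table only. The windows shown next are those of Fasn and Elovl6, whose RNA levels followed the other members most closely, of Acss2, which had the largest diet difference in floxed mice, of Thrsp, whose HF knockout levels were the lowest of all, and of Srebf1, whose level did not follow the others. Capitals mark each CCAAT box on either strand (CCAAT or ATTGG).
Fasn, chr11:120824498-120824797, minus strand: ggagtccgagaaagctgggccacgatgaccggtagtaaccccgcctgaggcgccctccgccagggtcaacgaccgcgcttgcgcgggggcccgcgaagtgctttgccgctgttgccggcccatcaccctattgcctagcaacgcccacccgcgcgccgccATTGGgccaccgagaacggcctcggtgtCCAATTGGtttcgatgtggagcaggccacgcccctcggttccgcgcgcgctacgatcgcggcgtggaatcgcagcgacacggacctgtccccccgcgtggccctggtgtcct
Elovl6, chr3:129532136-129532435, plus strand: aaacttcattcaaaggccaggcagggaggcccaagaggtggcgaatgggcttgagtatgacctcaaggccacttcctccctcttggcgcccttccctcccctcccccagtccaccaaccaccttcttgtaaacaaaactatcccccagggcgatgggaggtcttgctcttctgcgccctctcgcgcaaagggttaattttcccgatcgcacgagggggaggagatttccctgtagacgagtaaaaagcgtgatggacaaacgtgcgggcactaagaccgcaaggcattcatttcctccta
Acss2, chr2:155517793-155518092, plus strand: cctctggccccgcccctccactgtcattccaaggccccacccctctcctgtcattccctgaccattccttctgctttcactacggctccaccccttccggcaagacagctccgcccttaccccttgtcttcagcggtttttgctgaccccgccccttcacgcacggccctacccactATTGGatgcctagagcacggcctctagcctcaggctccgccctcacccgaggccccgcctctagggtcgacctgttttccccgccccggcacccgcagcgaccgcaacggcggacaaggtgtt
Thrsp, chr7:97417501-97417800, minus strand: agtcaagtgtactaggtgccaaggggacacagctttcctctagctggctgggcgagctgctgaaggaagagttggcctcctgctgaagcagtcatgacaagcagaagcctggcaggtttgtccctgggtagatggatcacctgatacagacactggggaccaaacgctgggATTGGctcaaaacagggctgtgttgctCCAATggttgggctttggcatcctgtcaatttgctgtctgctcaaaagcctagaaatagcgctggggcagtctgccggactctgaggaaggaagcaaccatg
Srebf1, chr11:60210422-60210721, minus strand: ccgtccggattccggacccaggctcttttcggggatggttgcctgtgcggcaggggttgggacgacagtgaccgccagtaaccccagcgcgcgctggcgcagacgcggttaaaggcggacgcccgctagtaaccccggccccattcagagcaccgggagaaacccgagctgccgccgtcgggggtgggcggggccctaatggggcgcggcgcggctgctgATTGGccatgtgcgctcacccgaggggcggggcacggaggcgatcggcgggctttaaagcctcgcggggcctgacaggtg

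Counted on both strands, CCAAT stood in 8 of the 12 windows and in 7 genes (Acacb, Acly, Acss2, Fasn, Me1, Srebf1 and Thrsp), against 37.4% of all 32851 mouse windows of the same length. Fasn held 3 matches, 2 of which overlap in one palindrome, and Thrsp held 2. The GC box GGGCGG stood in 5 windows of 4 genes (Acly, Acss2, Me1 and Srebf1), against 35.7% of all windows, and Acss2 had 5 copies. The sterol regulatory element TCACNCCAC and the E-box CACGTG were in none of the 12 windows, against 1.24% and 7.15% of all windows. Elovl6 and Acaca had none of the 4 motifs in these windows. A letter match is no evidence of binding, and no match says only that these letters are not in this window.

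Each library held 16131506 to 16536016 estimated counts, and all 10 genes passed the filter on low counts that 12587 genes passed. Hepatocyte markers were abundant in every library (Alb, albumin, at 20593 to 72054 FPKM), and FPKM here means fragments scaled to transcript length and library size. The targeted gene Thbs1 was at 0.16, 1.42 and 1.63 FPKM in HF knockout, 0.75, 0.75 and 0.31 in HF floxed, 0.08, 0.55 and 0.55 in LF knockout and 0.11, 0.06 and 0.07 in LF floxed libraries. It was thus not lower in the libraries labelled knockout, and every genotype direction below rests on the labels. Whole liver cannot check a deletion limited to macrophages. LF knockout 2 and 3 were nearly identical (r = 0.995 over genes on the log2 scale, chi-square 2.81 per degree of freedom), as were HF floxed 1 and 2 (r = 0.994, 8.54). Both pairs differed by more than sampling noise and were kept apart, and the 10 genes differed by 0 to 11.4% and by 0.868 to 14.2% within them. HF knockout 2 stood farthest from the rest, with r of 0.907 to 0.941 to the other 11 libraries. Some libraries were closer to another group than to their own. HF floxed 3 had r = 0.989 with LF knockout 2 and 0.975 with HF floxed 1 and 2. LF knockout 1 had 0.989 with LF floxed 2 and 0.980 with LF knockout 2 and 3. HF knockout 1 had 0.979 with HF floxed 3, against 0.907 and 0.966 with HF knockout 2 and 3. The labels give replicate numbers but no animals, and the p-values therefore reflect only the variation among these libraries, part of which may be technical.

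**Figure D1:**
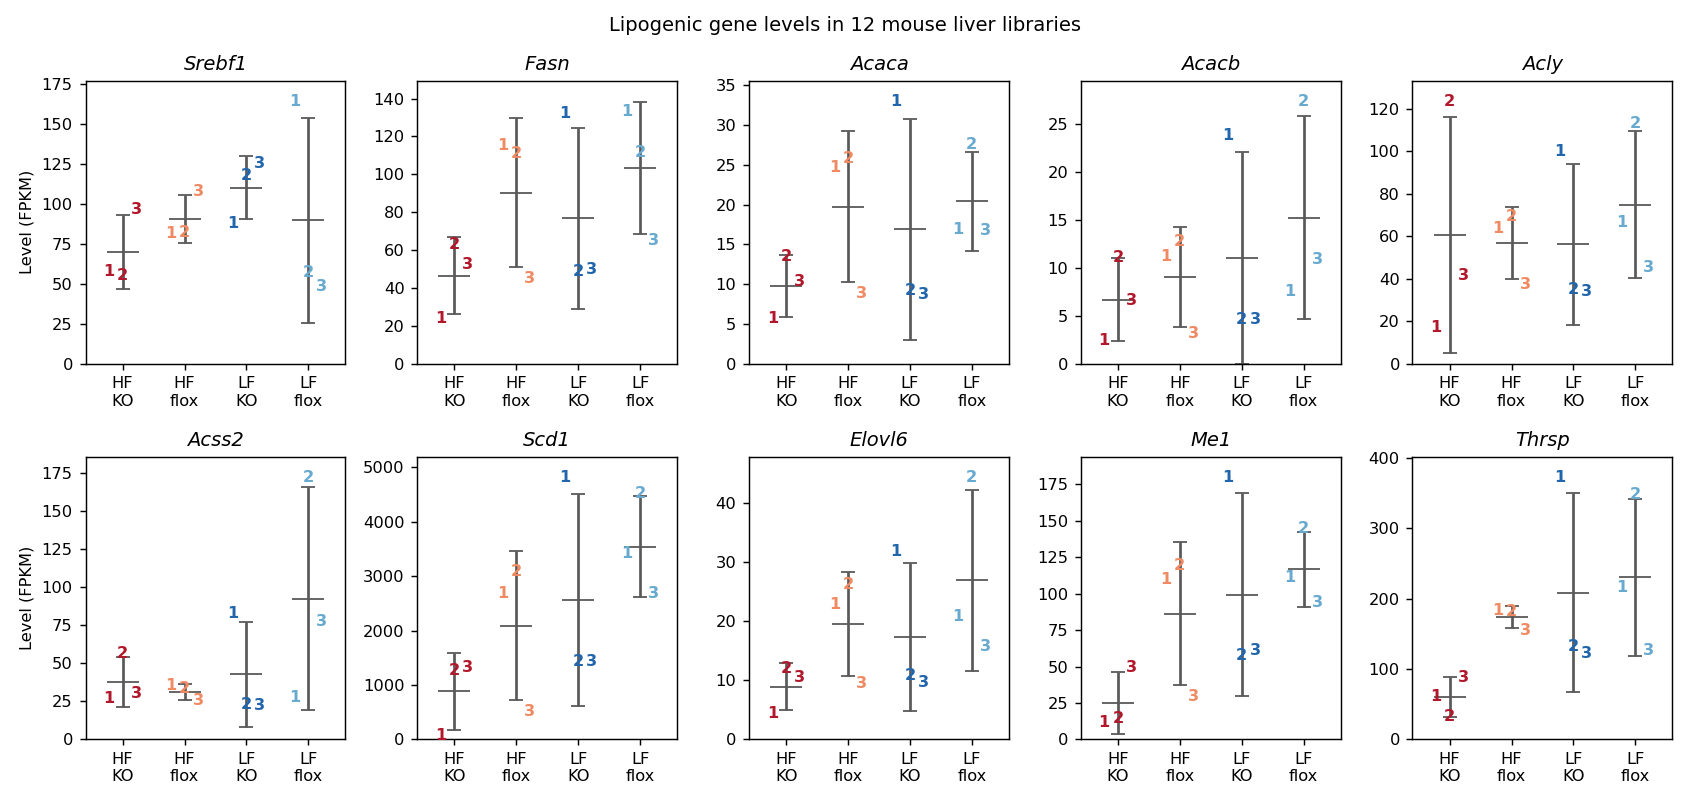
Level in FPKM (y axis) of each of the 10 genes in the HF knockout, HF floxed, LF knockout and LF floxed libraries (x axis), drawn as replicate numbers, with the group mean and SD as lines. Replicate 1 is the highest LF knockout library for 9 of the 10 genes, and replicate 1 is the lowest HF knockout library for 8 of them; Srebf1 is an exception to both and Thrsp to the second.

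Srebf1 (gene 20787) was at 57.7, 55.1 and 96.4 FPKM in HF knockout, 81.4, 82.1 and 108 in HF floxed, 87.6, 117 and 125 in LF knockout and 164, 56.8 and 48.4 in LF floxed libraries. The LF floxed libraries thus held both its highest and its lowest level, and the 4 groups overlapped. Group means were 69.7 ± 23.1, 90.4 ± 14.98, 110.0 ± 19.7 and 89.6 ± 64.2 FPKM (SD, n = 3 each) in HF knockout, HF floxed, LF knockout and LF floxed. Of the 10 genes it varied least within groups, with a pooled SD of 0.55 on the log2 scale. The counts sum the transcripts from all of its starts, so SREBP-1a and SREBP-1c cannot be told apart.

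Acly (gene 104112) encodes ATP citrate lyase, which makes acetyl-CoA from citrate. It was at 17.2, 123 and 41.8 FPKM in HF knockout, 63.5, 69.2 and 37.4 in HF floxed, 100.1, 34.8 and 33.9 in LF knockout and 66.5, 113 and 45.4 in LF floxed libraries. HF knockout replicates 1 and 2 were its lowest and its highest library of all 12. Acss2 (gene 60525), the cytosolic enzyme that makes acetyl-CoA from acetate, was at 26.8, 56.4 and 29.8 FPKM in HF knockout, 35.2, 33.2 and 25.5 in HF floxed, 82.7, 23.2 and 22.1 in LF knockout and 27.6, 172 and 77.4 in LF floxed libraries. Its 3 highest libraries were LF floxed 2, LF knockout 1 and LF floxed 3, and the other 9 lay between 22.1 and 56.4 FPKM. Acly exceeded Acss2 in FPKM in most libraries, by a ratio whose median was 1.49 and whose range was 0.586 to 2.41.

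Acaca (gene 107476) and Acacb (gene 100705) encode the acetyl-CoA carboxylases, the first making malonyl-CoA for synthesis and the second, at mitochondria, making the malonyl-CoA that holds back fatty acid oxidation. Acaca was at 5.67, 13.4 and 10.4 FPKM in HF knockout, 24.7, 25.8 and 8.77 in HF floxed, 32.9, 9.16 and 8.65 in LF knockout and 16.9, 27.6 and 16.8 in LF floxed libraries. Acacb was at 2.38, 11.1 and 6.57 FPKM in HF knockout, 11.2, 12.8 and 3.10 in HF floxed, 23.8, 4.65 and 4.65 in LF knockout and 7.57, 27.3 and 10.9 in LF floxed libraries. For both genes 2 of the 3 HF floxed libraries were high and the third was low, while in LF knockout 1 library was high and 2 were low. The ratio of Acaca to Acacb, both per length, was between 1.01 and 2.83 in every library.

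Fasn (gene 14104), fatty acid synthase, was at 23.9, 63.2 and 52.7 FPKM in HF knockout, 115, 111 and 44.96 in HF floxed, 132, 48.7 and 49.8 in LF knockout and 133, 112 and 65.2 in LF floxed libraries. Its level in HF knockout, 46.6 ± 20.4 FPKM, was about that of HF floxed 3 and of LF knockout 2 and 3, and the groups overlapped. Elovl6 (gene 170439) encodes the elongase that takes palmitate to stearate. It was at 4.42, 11.97 and 10.5 FPKM in HF knockout, 22.8, 26.3 and 9.54 in HF floxed, 31.8, 10.8 and 9.61 in LF knockout and 20.8, 44.4 and 15.7 in LF floxed libraries. In Elovl6, as in Fasn, HF knockout 1 was the lowest of all 12 libraries and LF knockout 1 was among the highest.

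Scd1 (gene 20249), the stearoyl-CoA desaturase that makes monounsaturated fatty acids, was the most abundant of the 10 genes per length in all 12 libraries. It was at 73.0, 1262 and 1318 FPKM in HF knockout, 2677, 3082 and 521 in HF floxed, 4811, 1435 and 1433 in LF knockout and 3422, 4521 and 2678 in LF floxed libraries. HF knockout 1 stood far below the others, and there the ratio of Scd1 to Fasn was 3.06, against a median of 26.7 over the 12 libraries. The pooled SD within groups was 1.49 on the log2 scale, the largest of the 10. Scd1 shares sequence with Scd2, its count was a whole number in only 1 of 12 libraries, and its level is therefore less certain than that of most others.

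Me1 (gene 17436) encodes cytosolic malic enzyme, a source of NADPH for fatty acid synthase. It was at 11.4, 14.2 and 49.4 FPKM in HF knockout, 109.7, 119 and 29.7 in HF floxed, 179.7, 57.9 and 60.8 in LF knockout and 111, 145 and 94.3 in LF floxed libraries. All 3 HF knockout libraries lay below all 6 LF libraries, whereas HF floxed 3 fell inside the HF knockout range. Thrsp (gene 21835), the Spot 14 protein that goes with high rates of fatty acid synthesis, was at 60.7, 32.0 and 87.8 FPKM in HF knockout, 183, 181 and 156 in HF floxed, 372, 132 and 123 in LF knockout and 216, 349 and 127 in LF floxed libraries. Its 3 HF knockout libraries were the 3 lowest of all 12. Group means of Thrsp were 60.2 ± 27.9, 173 ± 15.5, 209 ± 141 and 231 ± 111 FPKM (SD, n = 3 each) in HF knockout, HF floxed, LF knockout and LF floxed. Me1 counts were whole in 0 of 12 libraries, so its level is less certain, and what its reads may be shared with was not tested.

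By group mean, LF floxed was highest for 9 of the 10 genes and LF knockout for Srebf1. HF knockout was lowest for 8 of the 10, while LF knockout was lowest for Acly and HF floxed for Acss2. Neighbouring groups in these orders overlapped for every gene except Thrsp, where HF knockout lay wholly below HF floxed. Together the 10 genes took 0.133 to 0.917% of the counts of named genes in HF knockout, 0.468 to 2.05% in HF floxed, 0.990 to 3.06% in LF knockout and 1.801 to 3.01% in LF floxed libraries. Scd1 alone took 0.0396 to 0.727%, 0.288 to 1.71%, 0.790 to 2.61% and 1.55 to 2.55% in the same order. It made up most of the total in every library except HF knockout 1. In bulk RNA fewer cells of a type and less RNA per cell cannot be told apart.

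**Figure D2:**
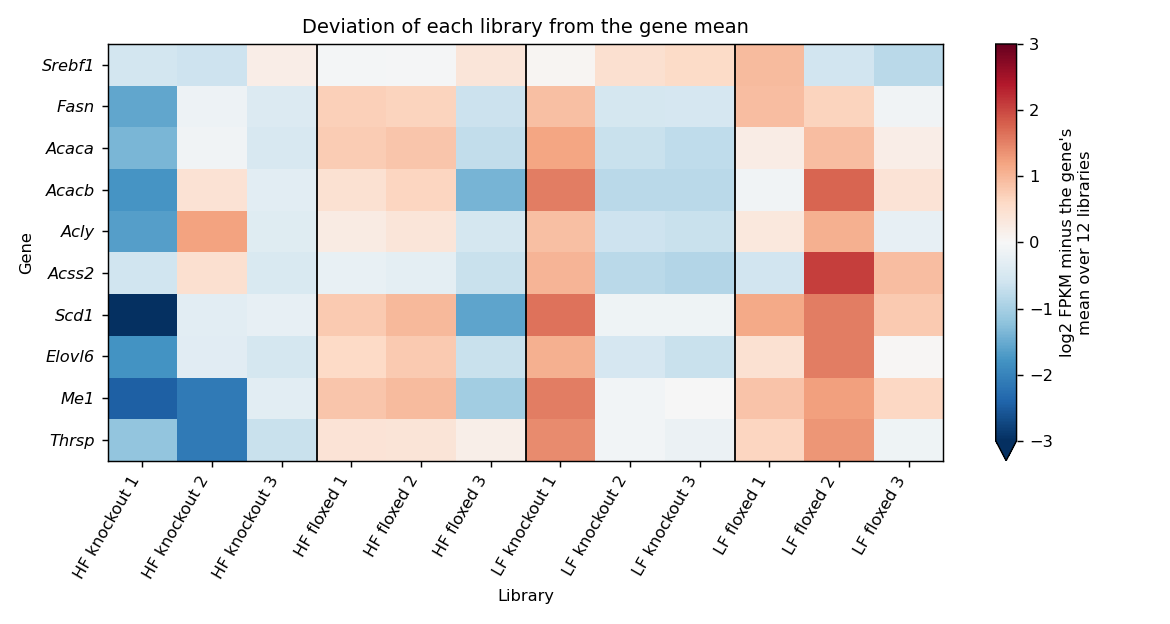
Heat map of log2 FPKM minus the mean of the gene over the 12 libraries (colour, red higher and blue lower), with genes as rows and libraries as columns in the order HF knockout, HF floxed, LF knockout, LF floxed. All 9 enzyme and cofactor genes are below their mean in HF knockout 1 and 3 and in LF knockout 2 and 3 and above it in LF knockout 1 and LF floxed 2, and the other 6 libraries are mixed; Scd1 in HF knockout 1, at -4.42, lies beyond the colour scale.

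The effect of the HF diet in libraries labelled knockout was tested first. All fold changes are from 1 edgeR quasi-likelihood fit, and adjusted p is the Benjamini-Hochberg value over the 12587 genes tested. None of the 10 genes passed a false discovery rate of 5%, nor did any other gene (0% of all genes). Log2 fold changes, HF over LF, were below 0 for 9 of the 10 genes, against 47.1% of all genes, with a median of -0.82, against 0.03 over all genes. Me1 averaged 25.0 ± 21.2 FPKM in HF knockout and 99.5 ± 69.5 FPKM in LF knockout, a log2 fold change of -2.08 (SE 0.63, edgeR adjusted p = 0.344). Thrsp had a log2 fold change of -1.79 (SE 0.52, edgeR adjusted p = 0.344), and Acly had 0.04 (SE 0.63), which ran from -0.97 without HF knockout 2 to 0.82 without LF knockout 1. Unadjusted p was under 0.05 and the fold change negative for these 2, Me1 and Thrsp, against 3.38% of all genes.

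In Me1, Scd1 and Thrsp, 3 of the 10 genes, every HF knockout library was below every LF knockout library, against 5.98% of all genes. DESeq2 called Me1 (adjusted p = 0.0423) and Thrsp (adjusted p = 0.0408) lower on HF in knockout libraries, 2 of the 10 genes, against 0.175% of the 12023 genes it gave an adjusted p. Under the other alternatives no member was called here. LF knockout 1 carried much of the difference: without it the median of the 10 genes was -0.12, Me1 had a log2 fold change of -1.26 and Thrsp one of -1.02 (edgeR adjusted p = 0.544 and 0.538). DESeq2 was not rerun with single libraries left out.

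In floxed libraries the same diet comparison had 0 of 10 genes past the false discovery rate, against 0% of all genes. All 10 fold changes were below 0, against 50.1% of all genes, and the median was -0.73, against -0.00 over all genes. Acss2 had the largest, at 31.3 ± 5.13 FPKM in HF floxed and 92.2 ± 73.2 FPKM in LF floxed, a log2 fold change of -1.83 (SE 0.65, edgeR adjusted p = 0.325). It was the only one of the 10 with an unadjusted p under 0.05, against 5.32% of all genes that were lower at that p. Scd1 followed with -1.09 (SE 0.87), or -0.66 without HF floxed 3, and Acacb with -1.07 (SE 0.76), or -0.36 without LF floxed 2. Srebf1 had -0.24 (SE 0.43), which was 0.57 without LF floxed 1 and 0.22 in a limma fit on log2(FPKM + 1). That limma fit put the median at -0.38, and leaving out LF floxed 2 put it at -0.41 in edgeR, with Acss2 at -1.02. No member had all 3 HF floxed libraries below all 3 LF floxed libraries, against 3.3% of all genes.

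Dbp, a clock-controlled gene whose RNA swings over the day, was at 34.1, 3.97 and 2.64 FPKM in HF knockout, 2.44, 2.39 and 4.97 in HF floxed, 84.2, 4.24 and 5.03 in LF knockout and 1.98, 90.8 and 57.9 in LF floxed libraries. The 3 libraries highest in Dbp were also the 3 highest in Acss2. HF knockout 1, the next in Dbp, went the other way, with Acss2 at 26.8 FPKM, below its median of 31.5 FPKM. With log2 Dbp as a covariate, an alternative chosen after the data were seen, the diet difference of Acss2 in floxed libraries was -0.49 on the log2 scale (edgeR adjusted p = 0.985). Averaged over genotypes it was 0.0028, with Me1 at -1.23 and Thrsp at -0.89. In floxed libraries Thrsp was -0.25 with the covariate, against -0.68 without it. The median of the 10 genes with the covariate was -0.44 in floxed libraries, against -0.73 without it, and -0.55 averaged, against -0.91. Dbp itself differed between the diets in floxed libraries, at 3.27 ± 1.48 FPKM on HF and 50.2 ± 44.9 on LF. The fit with the covariate therefore cannot tell the time of day apart from the diet. The labels give no time of collection, and the part of the time of day in these values was not tested.

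Averaged over genotypes, HF against LF again had 0 of 10 genes past the false discovery rate, against 0.00794% of all genes. All 10 log2 fold changes were below 0, against 48.5% of all genes, with a median of -0.91, against 0.01 over all genes, and of -0.49 without LF knockout 1. Thrsp stood at -1.24 (SE 0.36, edgeR adjusted p = 0.200) and Me1 at -1.42 (SE 0.44, edgeR adjusted p = 0.205). Acss2, Elovl6, Me1, Scd1 and Thrsp (5 of 10) were lower at an unadjusted p under 0.05, against 4.83% of all genes. DESeq2 called Thrsp (adjusted p = 0.0261) and Me1 (adjusted p = 0.0289), 2 of 10, against 0.775% of genes called lower. The 10 genes share the same libraries and most of them varied together, so these counts do not stand for 10 separate observations.

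**Figure D3:**
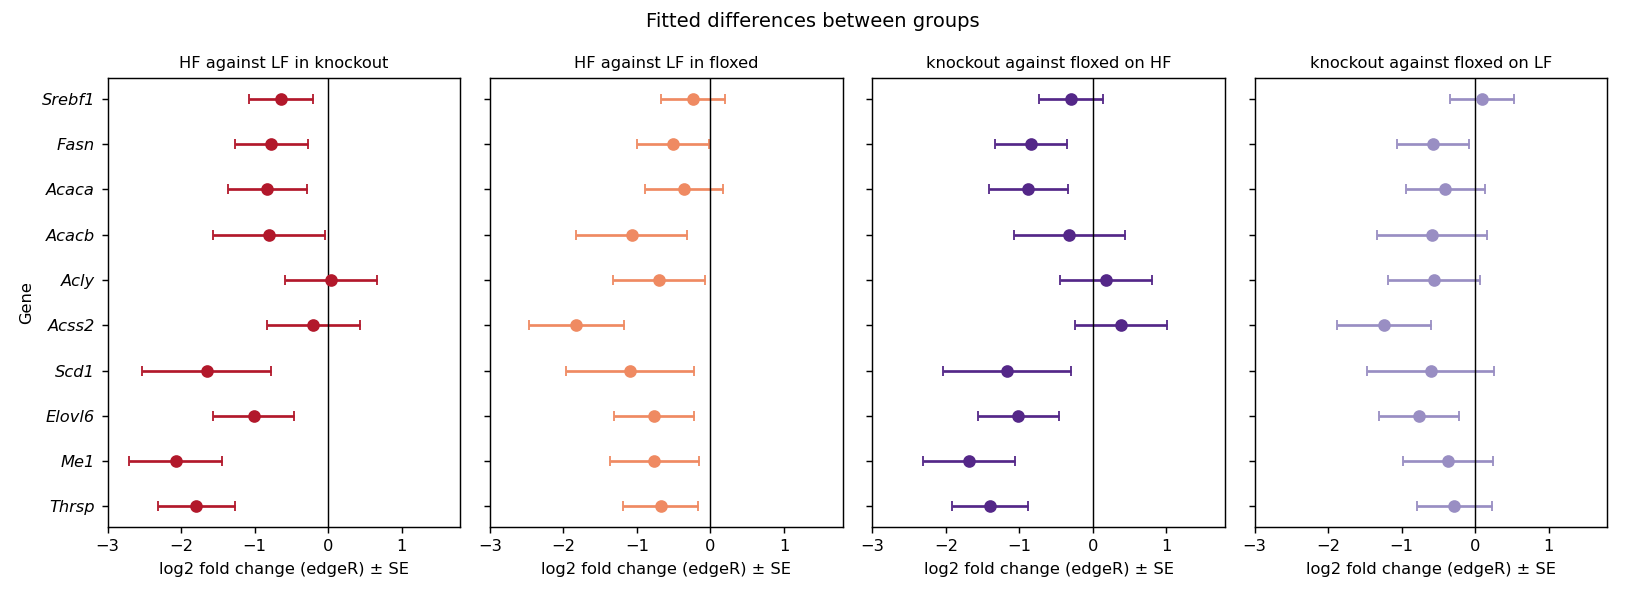
Log2 fold change (x axis, edgeR) with its SE as a bar for each of the 10 genes (y axis), for HF against LF in knockout and in floxed libraries and for knockout against floxed on HF and on LF. Nearly all points lie left of 0, and Me1 and Thrsp reach -2.08 and -1.79 for the diet in knockout libraries.

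For the genotype on the HF diet, 0 of the 10 genes passed the false discovery rate, against 0% of all genes. In libraries labelled knockout 8 of 10 fold changes over floxed were below 0, against 46.6% of all genes, with a median of -0.86, against 0.03 over all genes. Me1 averaged 25.0 ± 21.2 FPKM in HF knockout and 86.2 ± 49.2 FPKM in HF floxed, a log2 fold change of -1.69 (SE 0.63, edgeR adjusted p = 0.607). Thrsp, at -1.40 (SE 0.52, edgeR adjusted p = 0.607), was the only one of the 10 whose HF knockout libraries all lay below the HF floxed ones, against 7.08% of all genes. Me1 and Thrsp (2 of 10) were lower at an unadjusted p under 0.05, against 3.06% of all genes. The 2 positive values were those of Acss2 (0.38, SE 0.63) and Acly (0.18, SE 0.63). Without HF knockout 2, where Acly was at 123 FPKM, Acly had -0.83 and Acss2 0.04. Both diet and genotype comparisons use the HF knockout libraries, so they are not independent of each other.

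On the LF diet the genotype comparison had 0 of 10 genes past the false discovery rate, against 0.0159% of all genes, and 0 of 10 at an unadjusted p under 0.05, against 5.13% of all genes. Fold changes were below 0 for 9 of 10 members, against 52.5% of all genes, with a median of -0.57, against -0.02 over all genes. None had all 3 LF knockout libraries below all 3 LF floxed ones, against 2.18% of all genes. Acss2 had the largest, at -1.24 (SE 0.64, edgeR adjusted p = 0.929), and Srebf1 the only positive one, at 0.10 (SE 0.43). Acss2 ran from -2.23 without LF knockout 1 to -0.43 without LF floxed 2, and Srebf1 from -0.19 without LF floxed 3 to 0.91 without LF floxed 1. Without LF knockout 1 the median was -1.36, without LF knockout 2 or 3 it was -0.25 or -0.24, without LF floxed 2 it was -0.18, and with the near-identical libraries averaged it was -0.24. The test of whether the diet effect differed between genotypes (the interaction) found 0 of 10 genes, against 0.0159% of all genes, with 0 of 10 at an unadjusted p under 0.05, against 9.55% of all genes. Interaction values were below 0 for 7 of 10 members, against 46% of all genes, with a median of -0.33, against 0.05 over all genes. Acss2 had the largest, at 1.62 (SE 0.90, edgeR adjusted p = 0.587), and Me1 had -1.31 (SE 0.86). Acss2 ran from 0.82 without LF floxed 2 to 2.63 without LF knockout 1, and Me1 from -2.12 without HF knockout 3 to -0.49 without LF knockout 1. The median ran from -0.60 to 0.50 with 1 library left out, and the positive end was without LF knockout 1.

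Across the 12 libraries the 9 enzyme and cofactor genes varied with each other, and Srebf1 did not rise and fall with them as a set. The 36 pairs among the 9 had Pearson r between 0.32 and 0.96 on log2(FPKM + 1), with a median of 0.81. The 9 pairs with Srebf1 ran from -0.64 (Acss2) to 0.29 (Thrsp), with a median of -0.06. Against the mean of the other 9 genes, Elovl6 had r = 0.98, Fasn 0.94, Acaca 0.93, Scd1 0.91, Acacb 0.87, Me1 0.86, Acly 0.76, Thrsp 0.72 and Acss2 0.54. For Srebf1 that value was -0.07, with a Spearman rho of -0.27, and -0.02 over 10 points when the near-identical pairs were averaged. These are descriptions over 12 libraries that include the near-identical pairs and the groups themselves.

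Single libraries differed in this. LF floxed 1 had the highest Srebf1 (164 FPKM) and also the highest Fasn (133 FPKM), so there both were high together. By contrast, LF floxed 2, with 56.8 FPKM of Srebf1, had the highest Acss2, Acacb and Elovl6 of all libraries. HF floxed 3 had 108 FPKM of Srebf1 and was among the 3 lowest libraries for 7 of the 10 genes. Fasn over Srebf1, both per length, ranged from 0.399 to 1.97, and Scd1 over Srebf1 from 1.26 to 79.6. LF knockout 1 was among the 3 highest libraries for 9 genes and LF floxed 2 for 8, and HF knockout 1 was the lowest library for 7.

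**Figure D4:**
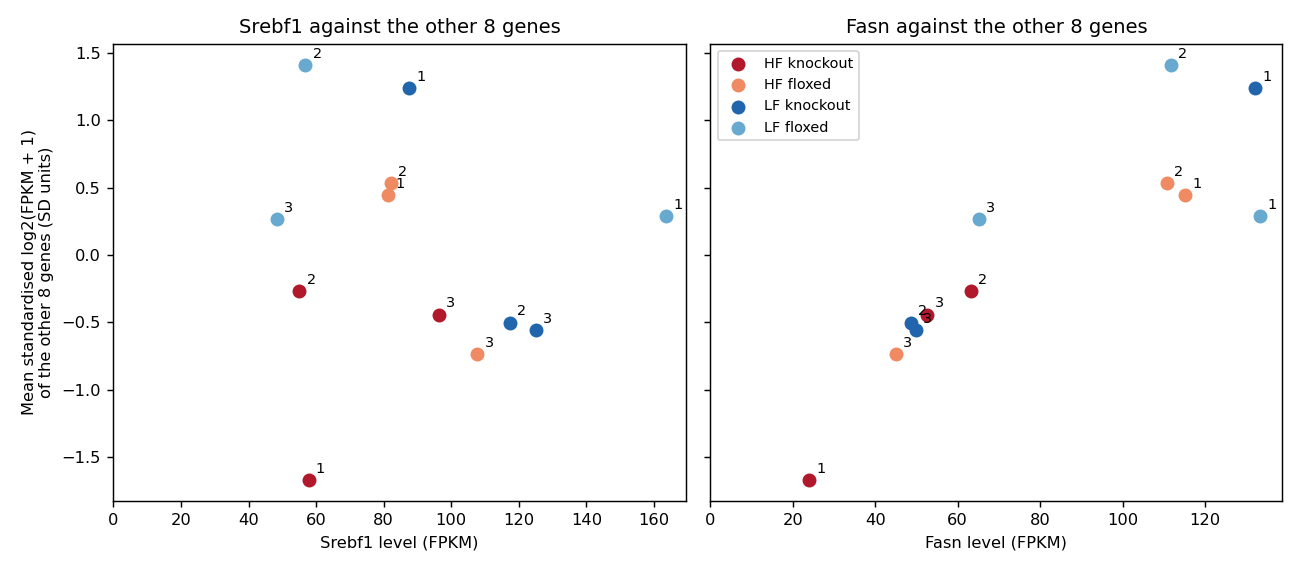
Mean standardised log2(FPKM + 1) of the 8 genes other than Srebf1 and Fasn (y axis, in SD units) against the FPKM of Srebf1 (left) and of Fasn (right), 1 point for each library, coloured by group and numbered by replicate. For Fasn the lowest library, HF knockout 1 (23.9 FPKM), has the lowest score (-1.67), while the 2 highest, LF floxed 1 (133 FPKM) and LF knockout 1 (132 FPKM), score 0.29 and 1.24; LF floxed 1 is also the highest for Srebf1 (164 FPKM).

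Of 10010 other tested genes with a mean of at least 1 FPKM, Pklr was most like the mean of the 10 members over the 12 libraries (r = 0.93). It encodes liver pyruvate kinase, which closes glycolysis and is a known ChREBP target, and it ran from 35.8 FPKM in HF knockout 1 to 198 in LF floxed 2. Hcn3 (r = 0.90), Pgrmc2 (0.89), Kcmf1 (0.88), Fkbp14 (0.88) and Tmem57 (0.87) came next. Pgrmc2, Kcmf1, Fkbp14 and Tmem57 had their lowest level in HF knockout 1 and their highest in LF knockout 1, as did Acaca, Scd1 and Me1 among the members.

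Genes that act with the 10 were read from the same fit, and no gene of any list passed the false discovery rate in any of the 4 single comparisons. Transcription factors and cofactors of lipogenesis (13 genes) were lower on HF for 9 in knockout and 11 in floxed libraries, with medians of -0.10 and -0.28, and their genotype medians were 0.16 on HF and 0.01 on LF. Mlxipl, the ChREBP gene, was at 30.3, 29.3 and 17.1 FPKM in HF floxed and 53.9, 47.4 and 46.2 FPKM in LF floxed libraries, with no overlap and a log2 fold change of -1.24 (SE 0.24, edgeR adjusted p = 0.177). Pparg, the adipogenic nuclear receptor, had the opposite sign, at 13.9 ± 5.22 FPKM in HF floxed and 3.51 ± 1.60 in LF floxed (1.64, SE 0.55). Usf1 and Nr1h2 had 0.28 (SE 0.15) and 0.29 (SE 0.19) for the genotype on HF.

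Genes of SREBP processing and insulin signalling (13) had medians of 0.14 and -0.08 for the diet in knockout and floxed libraries and of 0.24 and 0.00 for the genotype on HF and LF. Irs1, an insulin receptor substrate, was at 1.66 ± 0.236 FPKM in HF floxed and 2.68 ± 0.223 in LF floxed (log2 fold change -0.94, SE 0.24). Scap, which escorts SREBPs to the Golgi for cleavage, had -0.73 (SE 0.29) in that comparison and 0.57 (SE 0.29) for the genotype on HF. It was at 20.69, 17.72 and 19.29 FPKM in HF floxed and 20.88, 38.58 and 21.29 in LF floxed libraries, with LF floxed 2 far above the other floxed libraries. Srebf2, the gene of the sterol-regulated SREBP, had 0.69 (SE 0.27) for the genotype on HF, where Srebf1 had -0.30 (SE 0.43). For both, HF knockout 2 was the highest of the HF libraries: Scap was at 20.2, 38.1 and 21.6 FPKM and Srebf2 at 10.98, 25.8 and 14.1 FPKM in HF knockout.

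Carbohydrate-responsive genes of glycolysis and fructose use (10) came closest to the members in 2 comparisons. All 10 were lower in HF knockout than in LF knockout, with a median of -0.74, or -0.46 without LF knockout 1, and 9 of 10 were lower in HF knockout than in HF floxed, with a median of -0.78. In floxed libraries their diet median was 0.04, and the genotype median on LF was -0.09. Pklr averaged 58.6 ± 21.4 FPKM in HF knockout and 144 ± 46.5 in HF floxed (log2 fold change -1.19, SE 0.39, edgeR adjusted p = 0.598). Slc2a5, the fructose transporter, had -2.07 (SE 0.84) for the diet in floxed libraries.

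Cholesterol synthesis genes (16), the targets of SREBP-2, had the opposite sign to the members where HF knockout was compared. They were higher in HF knockout than in LF knockout for 15 of 16, with a median of 1.33, and higher than in HF floxed for 16 of 16, with a median of 0.96. HF knockout 2 carried most of both: without it the medians were 0.26 and 0.10. Their medians were -0.54 for the diet in floxed libraries and -0.64 for the genotype on LF, the same sign as the members, or -0.10 and -0.19 without LF floxed 2. Mvk and Lss, of the mevalonate and sterol steps, had 1.42 (SE 0.45) and 1.98 (SE 0.75) for the genotype on HF, and Pmvk and Fdft1 had -1.04 (SE 0.53) and -0.69 (SE 0.43) for the diet in floxed libraries. Lss was at 5.01, 44.8 and 5.0 FPKM in HF knockout and 5.02, 5.85 and 3.81 in HF floxed libraries, so its value rests on HF knockout 2. Mvk was at 13.52, 39.3 and 10.7 FPKM in HF knockout and 10.4, 7.18 and 7.90 in HF floxed libraries, again highest in HF knockout 2. HF knockout 3 (10.7 FPKM) was close to HF floxed 1 (10.4 FPKM).

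The other steps around the pathway had medians between -0.37 and 0.11, several of which changed sign when 1 library was left out. For the diet in knockout and floxed libraries, then for the genotype on HF and LF, citrate and CoA handling (11 genes) had -0.04, -0.37, 0.10 and -0.35, and NADPH-forming enzymes (10 tested) had 0.03, 0.11, -0.27 and -0.05. In the same order, desaturases and elongases other than the members (12 tested) had 0.11, -0.03, 0.11 and -0.27, and triglyceride synthesis genes (11 tested) had -0.16, 0.08, -0.19 and 0.02. G6pdx, which opens the pentose phosphate pathway and also yields NADPH, had 1.72 (SE 0.64) for the genotype on HF, against -1.69 for Me1, and -1.11 (SE 0.63) for the diet in floxed libraries. It was at 2.37, 16.4 and 5.38 FPKM in HF knockout and 2.85, 3.49 and 1.42 in HF floxed libraries, highest again in HF knockout 2. Idh2, the mitochondrial NADP-dependent isocitrate dehydrogenase, had -0.69 (SE 0.25) for the genotype on HF and 0.82 (SE 0.25) for the diet in floxed libraries. Slc25a1, the mitochondrial citrate carrier, and Mid1ip1, a partner of Thrsp that activates acetyl-CoA carboxylase, had -0.67 (SE 0.27) and -0.72 (SE 0.40) for the diet in floxed libraries. Mid1ip1 was at 23.75, 21.06 and 34.95 FPKM in HF floxed and 64.78, 22.69 and 23.49 in LF floxed libraries, so its value rests on LF floxed 1. Prkab1 and Prkaa2, subunits of AMPK, the kinase that inhibits acetyl-CoA carboxylase, had 0.68 (SE 0.27) and -0.56 (SE 0.27) for the genotype on HF, with Prkab1 at 11.7, 29.7 and 13.4 FPKM in HF knockout and 13.7, 12.7 and 10.4 in HF floxed libraries.

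Gpat3 and Mogat1, which put acyl groups on glycerol backbones, were at 3.96 ± 1.70 and 7.96 ± 3.23 FPKM in HF floxed and at 0.82 ± 0.233 and 0.597 ± 0.709 in LF floxed libraries. Their log2 fold changes were 1.96 (SE 0.39, edgeR adjusted p = 0.177) and 3.44 (SE 0.88, edgeR adjusted p = 0.235), while every member of the lipogenic set was below 0 in that comparison. For the genotype on HF, Mogat1 had -2.04 (SE 0.81) and Lpin2, a phosphatidate phosphatase, had -1.22 (SE 0.50). Hsd17b12, the ketoreductase of fatty acid elongation, had 0.58 (SE 0.18) for the diet in floxed libraries and -0.51 (SE 0.18) for the genotype on HF. Elovl7, an elongase, had 3.68 (SE 1.34) for that diet comparison. Its levels were low, at 1.18, 1.24 and 0.06 FPKM in HF floxed and 0.08, 0.03 and 0.03 in LF floxed libraries. The value thus rests on HF floxed 1 and 2, which are near-identical libraries.

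Genes that respond to fasting (10) and clock genes (12) were read for the state of the animals. Fasting genes had medians of -0.35 and 0.14 for the diet in knockout and floxed libraries and of -0.52 and -0.21 for the genotype on HF and LF. Igfbp1, which insulin represses, was at 7.69, 790.05 and 22.6 FPKM in HF knockout and 66.2, 67.3 and 8.97 in HF floxed libraries. Its HF knockout mean was higher through HF knockout 2 alone, and the HF knockout median was the lower one. Cpt1b had -1.84 (SE 0.48) for the genotype on HF and 1.40 (SE 0.48) for the diet in floxed libraries. Ppargc1a, a coactivator of gluconeogenesis, had -0.55 (SE 0.31) in that diet comparison. Clock genes had medians of -0.52 and -0.57 for the diet in knockout (0.13 without LF knockout 1) and floxed libraries and of 0.22 and -0.15 for the genotype on HF and LF. Per3 and Ciart, which cycle over the day, had -3.17 (SE 1.17) and -2.12 (SE 0.79) for the diet in floxed libraries, and for the genotype on HF Per3 had 1.93 (SE 1.15) and Dbp 2.32 (SE 1.49).

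**Figure D5:**
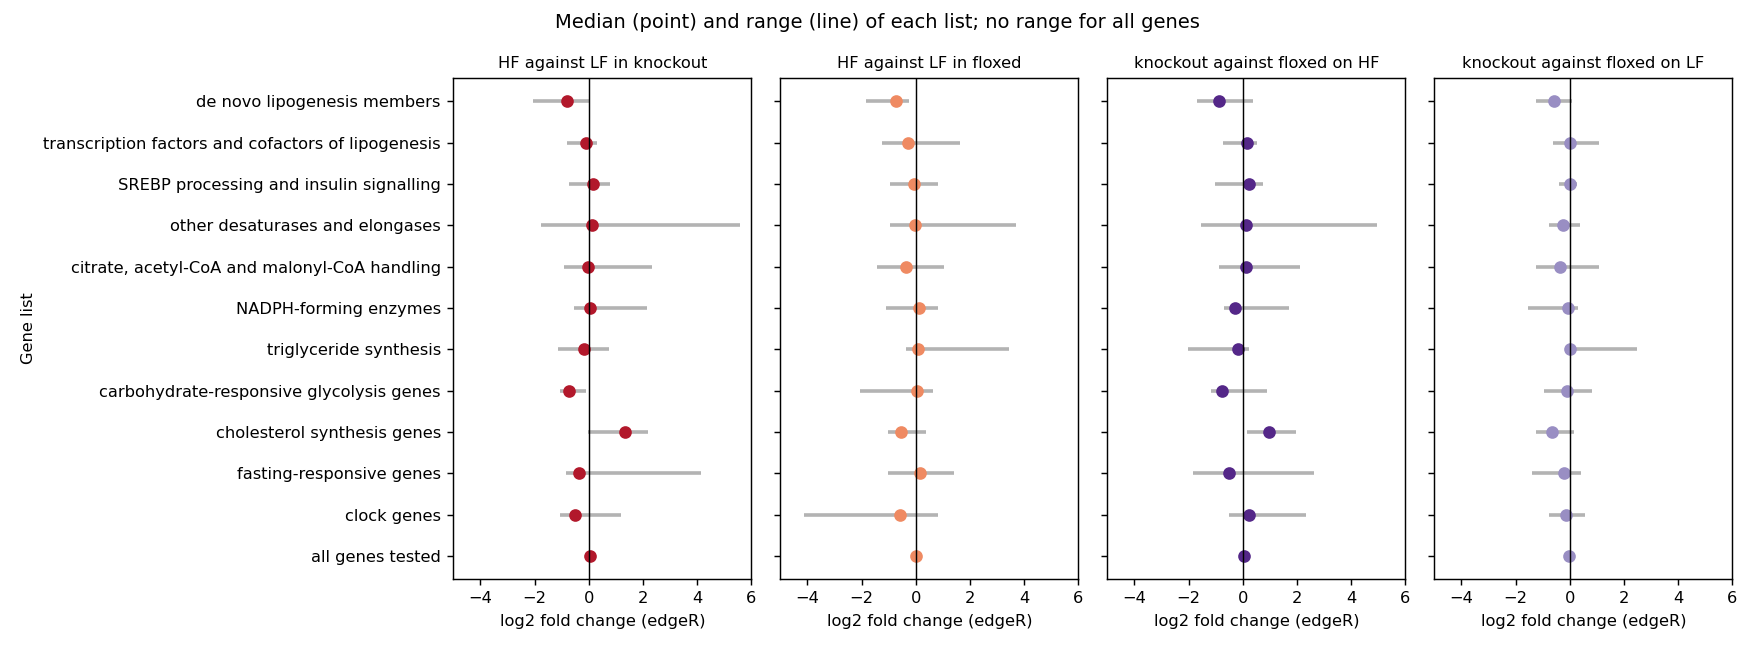
Median (point) and range (line) of the log2 fold change (x axis, edgeR) of each gene list (y axis) in the 4 comparisons, with the median of all tested genes in the last row. The 10 members have medians of -0.82, -0.73, -0.86 and -0.57 from the left panel to the right, and the cholesterol synthesis genes stand at 1.33, -0.54, 0.96 and -0.64.

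Adipocytes also express these enzymes. Of 10 adipocyte markers 9 were listed, and the defining ones were near 0, with Adipoq at 0 to 0.21, Plin1 at 0 to 0.07 and Retn at 0 to 0.22 FPKM. Their summed level was 128 to 2779 FPKM in HF knockout, 1600 to 3590 in HF floxed, 1328 to 3249 in LF knockout and 869.7 to 1333 in LF floxed libraries, and Car3, which liver also expresses, made up most of it. Cidec, a lipid droplet gene that fatty liver also expresses, was at 0.22, 24.9 and 19.7 FPKM in HF knockout, 90.8, 88.3 and 9.68 in HF floxed, 8.62, 29.8 and 28.5 in LF knockout and 0.53, 1.39 and 0.89 in LF floxed libraries. Fabp4 ran from 3.44 to 34.4 FPKM and Cfd from 0 to 29.5 FPKM. The 6 adipocyte markers that were tested had a median log2 fold change of 1.06 for the diet in floxed libraries. There 3 were higher at an unadjusted p under 0.05, against 862 of all 12587 genes. The marker median was 0.91 for the genotype on LF, where 2 were higher at that p, against 325 of all 12587 genes. It was -0.04 for the diet in knockout libraries and 0.26 for the genotype on HF, or -0.86 there without HF knockout 3. Hepatocyte markers (9 of 10 listed, none at 0) summed to 49997 to 107326 FPKM in HF knockout, 42121 to 44225 in HF floxed, 48756 to 64532 in LF knockout and 51838 to 71479 in LF floxed libraries. For the diet in floxed libraries 7 of these 9 were below 0, against 50.1% of all genes. Their median was -0.62, where the members had -0.73. At an unadjusted p under 0.05, 0 of the 9 were lower, against 5.32% of all genes. With 1 library left out that hepatocyte median ran from -0.88 to -0.42. It was 0.09 for the diet in knockout libraries, 0.21 for the genotype on HF and -0.21 on LF. Macrophage markers (8 of 8 listed, none at 0) summed to 82.7 to 316 FPKM in HF knockout, 104 to 195 in HF floxed, 68.3 to 133 in LF knockout and 62.8 to 196 in LF floxed libraries. For the diet in knockout libraries, 9 of the 10 members had fold changes below 0. There 7 of 8 macrophage markers were above 0, against 6658 of all 12587 genes, with a median of 1.14. Of the 8, 4 were higher at an unadjusted p under 0.05, against 1109 of all 12587 genes. Without HF knockout 3 the macrophage marker median was 0.53. It was 0.45 in floxed libraries, 0.65 for the genotype on HF and -0.10 on LF. Averaged over genotypes it was 0.52, with 4 higher at an unadjusted p under 0.05, against 1310 of all 12587 genes. The part of these cell type differences in the member values was not tested.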

How the data were processed

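RNA of frozen livers was extracted with a Qiagen kit and sequenced at BGI, per the labels' protocols. The submitters' processing notes name build mm9. The aligner, counter and annotation: not given in the sources used here. The deposited files hold estimated counts (expected counts), unscaled per the file headers and whole for 87.0 to 88.1% of genes in a library, and FPKM, which the authors scaled to effective length. No listed gene is under 0.01 FPKM, and a gene absent from a file was taken as 0. Loci without a gene name (1229, 6.65 to 17.33% of counts) stayed out of library sizes and tests, which left 13336969 to 15080378 counts a library.

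Rounded counts went into edgeR 4.0.16 (R 4.3.3): TMM scaling, filterByExpr (12587 genes), quasi-likelihood F tests, 1 mean per group over all 12 libraries, 6 comparisons, Benjamini-Hochberg adjustment over all genes and calls at a false discovery rate of 5%. SE came from the F statistic and the fold change. The biological coefficient of variation was 34.8%. The pipeline was tested on simulated data. Alternatives were DESeq2 1.42.0; edgeR with size factors from DESeq2; limma 3.58.1 on FPKM with a pseudocount of 1 or 0.1 (genes at 1 FPKM or more in 3 libraries); no filter; at least 10 counts in 3 libraries; only the groups compared; a replicate block; each library left out; HF floxed 3 and HF knockout 1 both left out, as the names of their files follow another pattern; near-identical libraries averaged; and unnamed loci kept. A Dbp covariate was added after the data were seen.

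The members, the 13 other lists and the alternatives were chosen with earlier results of these data known, so no list or direction is independent support. Named genes are all members, Thbs1, from each pathway list the 2 of smallest p in HF against LF in floxed and in knockout against floxed on HF, the 6 genes most like the members, and marker genes and Dbp as levels. One gene that the rule names is not reported here. Scd2 is named by that rule, and Pnpla3 was chosen after its values were seen. Likeness is Pearson r of log2(FPKM + 1). SDs are over the 3 libraries of a group.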

Additional observations from a re-analysis of the deposited data

How the results depend on the processing

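Over all alternatives, 1376 of 1420 member fold changes kept their sign and their side of the threshold, 40 changed sign and 4 passed it: Me1 and Thrsp under DESeq2 for HF against LF in knockout libraries and averaged over genotypes (2 members called each time, against 0 in edgeR). Of 1846 list medians, 11 moved. With 1 library left out the median of the 10 members ran from -1.18 to -0.12 for HF against LF in knockout, -0.98 to -0.41 in floxed and -1.09 to -0.49 averaged, from -1.15 to -0.59 for knockout against floxed on HF and -1.36 to -0.18 on LF, and from -0.60 to 0.50 for the interaction. No member was called in any of these fits. The count over all genes was small and unstable: leaving out 1 library gave 0 to 10 genes for HF against LF in knockout (0 with all libraries), 0 to 14 in floxed (0), 0 to 7 averaged (1), 0 to 14 for knockout against floxed on HF (0), 0 to 13 on LF (2) and 1 to 17 for the interaction (2).

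In the same order DESeq2 called 126, 254, 403, 69, 34 and 107 genes. Without HF knockout 1 and HF floxed 3 the counts were 2, 158, 682, 3, 7 and 5. These libraries, whose file names follow another pattern, were also low in most members. HF knockout 1 was the lowest library for 7 members, and HF floxed 3 was among the 3 lowest for 7. With both left out, the member median for the diet in floxed libraries was -0.54, against -0.73 with all libraries. Whether the file naming goes with the low levels was not tested. Fitting only the groups compared gave 82 genes for the diet in floxed and 11 for the genotype on LF, and could not be done for the averaged effect and the interaction, which need all 4 groups. For the diet in floxed, log2(FPKM + 0.1) and no filter gave 1 gene each and keeping unnamed loci gave 3. For the genotype on LF, log2(FPKM + 1) gave 0 genes, log2(FPKM + 0.1) gave 1 and averaged near-identical libraries gave 0. For the averaged diet effect, averaging those libraries gave 0, unnamed loci 2 and the Dbp covariate 0. For the interaction these 3 settings gave 0, 1 and 1. The cause was not tested.

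Single members changed sign as follows. For the diet in knockout, Acly was -0.13 and -0.14 and Acss2 0.024 and 0.029 under log2(FPKM + 1) and log2(FPKM + 0.1), and Acly was -0.23 with near-identical libraries averaged. Under the same 2 settings Srebf1 was 0.22 and 0.23 for the diet in floxed, and Acly was -0.28 and -0.30 for the genotype on HF. With the Dbp covariate Acss2 was 0.50 for the diet in knockout and 0.0028 averaged, and Acaca was 0.11 in floxed. With 1 library left out, ranges that crossed 0 were, for the diet in knockout, -1.17 to 0.17 (Acaca), -1.36 to 0.53 (Acacb), -0.97 to 0.82 (Acly) and -0.55 to 0.79 (Acss2), and in floxed -0.55 to 0.57 (Srebf1). For the genotype on HF they were -0.87 to 0.058 (Acacb) and -0.83 to 0.61 (Acly), and on LF -0.19 to 0.91 (Srebf1), -1.91 to 0.13 (Acacb) and -1.06 to 0.12 (Thrsp). The averaged diet effect of Acly ran from -0.83 to 0.056. For the interaction the ranges were -0.54 to 0.46 (Fasn), -0.81 to 0.54 (Acaca), -0.45 to 1.62 (Acacb), -0.27 to 1.53 (Acly), -0.995 to 0.37 (Scd1) and -0.79 to 0.62 (Elovl6).

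Replicate numbers are shared between groups but did not pair the libraries: correlations of deviations of same-numbered libraries ran from -0.39 to 0.42 over 18 pairs, with 3 over 0.1. With replicate number as a block, the genotype on LF had 0 genes, the averaged diet effect 0 and the interaction 1, Acly was -0.081 for the diet in knockout, and no member was called. Depth was alike across libraries, and the lowest member count in any library was 333 (Acacb).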

Other observations

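HF knockout 2 held genes that act beside the lipogenic enzymes at levels no other library reached. Scd2, a stearoyl-CoA desaturase that liver normally expresses little, was at 136 FPKM there and at 0.76 to 2.58 FPKM in the other 11 libraries, while Scd1 in the same library was at 1262 FPKM. Its log2 fold change for the genotype on HF was 4.94 (SE 1.42, edgeR adjusted p = 0.598), which rests on that library. Pnpla3, a lipid droplet protein that SREBP-1c is known to induce, was at 9.07 FPKM in HF knockout 2, against 0.03 and 0.6 in HF knockout 1 and 3, 0.07 to 1.17 in HF floxed, 0.17 to 2.63 in LF knockout and 1.23 to 2.22 in LF floxed libraries. Acly over Me1, both per length, was 8.70 in HF knockout 2, against 0.481 to 1.51 in the other 11 libraries. Srebf1 itself, at 55.1 FPKM, was among its lower values there.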
